A study of Homo sapiens with 8 samples.

Results

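The genes of the centromere, the kinetochore and the spindle assembly checkpoint were examined after DTHIB treatment of C4-2, an established human prostate cancer cell line that grows without androgen (castration-resistant, CRPC in the labels). The set has 40 members, chosen by gene symbol and matched through Ensembl identifiers to 40 of the 58884 genes in the table: 18 of the inner centromere, 15 of the outer kinetochore and 7 of the checkpoint. DTHIB, named E12 in the labels and described there as a direct inhibitor of the heat shock transcription factor HSF1, was given at 1 µM for 48 h in RPMI 1640 medium with 10% fetal bovine serum, and the control cells received the solvent DMSO for the same time. Libraries of poly(A)-enriched RNA were sequenced, 4 per group. Whether the 4 came from separate cultures is not in the labels, and each p-value therefore measures the spread among these libraries alone, possibly a technical one.

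The kinetochore is the protein assembly that ties each chromosome to spindle microtubules. Its inner layer, the constitutive centromere-associated network, sits on nucleosomes that carry the histone H3 variant CENP-A. Its outer layer, formed by the KNL1, MIS12 and NDC80 complexes, grips the microtubule. The spindle assembly checkpoint reads unattached kinetochores and holds back the anaphase-promoting complex until every chromosome is attached. Many of these genes are transcribed mainly late in the cell cycle, and a promoter sequence called the cell cycle genes homology region (CHR), which is bound by MuvB-containing complexes, is known from such genes.

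In DTHIB-treated cells 36 of the 38 tested members were lower than in DMSO, and 25 of them were lower by at least 2-fold. None was higher. Among all 17194 tested genes, those whose normalized counts averaged 10 or more, 33.7% were lower by the same test, 31% were higher and 4.36% were lower by at least 2-fold. A normalized count is a gene's read number after division by the library's size factor. The median log2 fold change of the tested members was -1.41, and that of all tested genes was -0.01. The members that did not pass the test were CENPT and MIS12. Both connect the inner centromere to the outer kinetochore, but so do members that fell. Among these are CENPC (log2 fold change -0.25) and DSN1 of the MIS12 complex (-1.54). SKA1 and MAD1L1 had too few reads to be tested.

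Members were called lower or higher at a Benjamini-Hochberg adjusted p under 0.05 from limma, fitted over all tested genes on log2(normalized count + 1), and all fold changes are on that scale. In each of the 36 members that fell, the 4 DTHIB values lay wholly below the 4 DMSO values, which was so for 30.8% of all tested genes. These are bulk samples, so fewer dividing cells and less RNA per dividing cell cannot be told apart. All 8 cell cycle markers examined beside the members also fell, at a median of -1.40 on the log2 scale. They ranged from -1.74 for the mitotic kinase gene CDK1 to -1.13 for MKI67, the gene of the proliferation antigen Ki-67. Their part in the result was not tested.

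**Figure D1:**
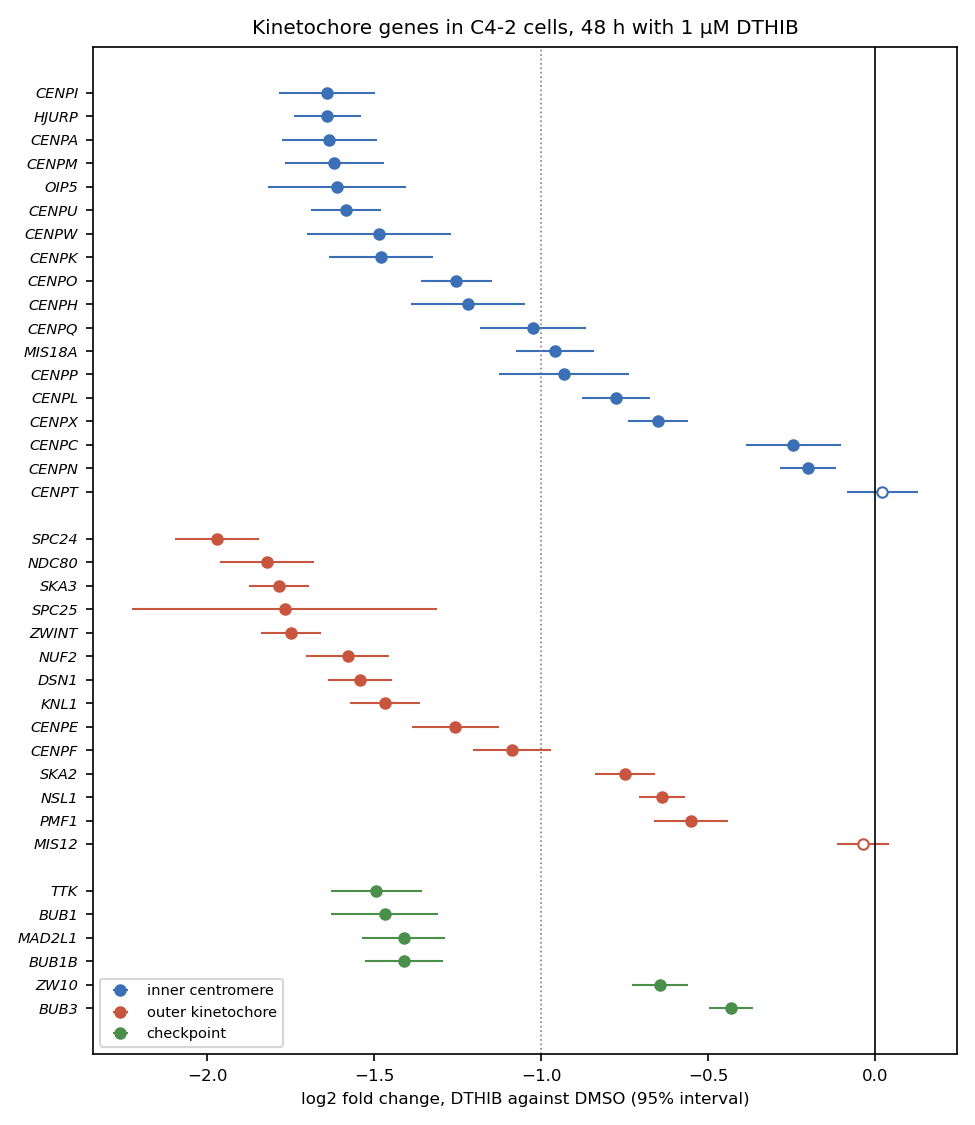
Log2 fold change of DTHIB against DMSO for the 38 tested members (points) with 95% intervals from limma (lines), 4 libraries per group, sorted within the inner centromere, outer kinetochore and checkpoint parts. Filled points passed an adjusted p under 0.05, and the dotted line marks a 2-fold fall. Most points lie between -2 and -1, while CENPT and MIS12 (open) lie at 0.02 and -0.04.

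Because the members mostly moved together, the bases before their start sites were searched for known strings. RefSeq promoter windows, 250 bases before to 50 after the start on build GRCh38.p14, were found for 33 of the 40 members. There was no entry for CENPH, CENPL, CENPM, MIS18A, KNL1, BUB3 and TTK. The following 150 bases end just before the start site and are written 5′ to 3′ in the direction of the gene. Capitals mark a CHR string (TTTGAA or TTCGAA, or the reverse complement TTCAAA) and a CCAAT string (or its reverse complement ATTGG), the box bound by NF-Y. CENPA and HJURP, ZWINT and BUB1B show a CHR string in strongly lower genes of each part. SPC24 is the member with the largest fall and has no CHR string, CENPC has one and fell little, and CENPT and MIS12 did not pass the test. The CHR strings of HJURP and CENPC begin at positions -111 and -90 from the start. Both therefore count below as members without one within 50 bases.
CENPA (chr2:26785906-26786055, plus strand): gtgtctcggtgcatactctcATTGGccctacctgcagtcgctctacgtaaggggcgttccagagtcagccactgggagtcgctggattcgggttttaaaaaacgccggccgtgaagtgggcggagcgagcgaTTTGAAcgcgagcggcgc
HJURP (chr2:233854536-233854685, minus strand): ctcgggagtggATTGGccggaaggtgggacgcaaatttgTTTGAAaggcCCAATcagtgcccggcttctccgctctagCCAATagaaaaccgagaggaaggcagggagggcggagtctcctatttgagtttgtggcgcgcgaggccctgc
ZWINT (chr10:56361260-56361409, minus strand): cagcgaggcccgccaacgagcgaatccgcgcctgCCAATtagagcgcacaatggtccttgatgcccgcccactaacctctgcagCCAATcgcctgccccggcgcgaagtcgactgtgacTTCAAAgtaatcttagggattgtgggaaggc
BUB1B (chr15:40160919-40161068, plus strand): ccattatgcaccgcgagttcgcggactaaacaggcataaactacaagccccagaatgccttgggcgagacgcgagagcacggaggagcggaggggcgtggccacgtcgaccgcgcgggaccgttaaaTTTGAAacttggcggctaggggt
SPC24 (chr19:11155783-11155932, minus strand): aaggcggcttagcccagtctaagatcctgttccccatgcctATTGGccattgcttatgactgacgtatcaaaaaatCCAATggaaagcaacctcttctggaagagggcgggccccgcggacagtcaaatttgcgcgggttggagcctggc
CENPC (chr4:67545504-67545653, minus strand): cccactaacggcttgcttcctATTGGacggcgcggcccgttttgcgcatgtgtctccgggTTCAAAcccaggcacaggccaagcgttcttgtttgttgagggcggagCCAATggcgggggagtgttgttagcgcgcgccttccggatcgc
CENPT (chr16:67847694-67847843, minus strand): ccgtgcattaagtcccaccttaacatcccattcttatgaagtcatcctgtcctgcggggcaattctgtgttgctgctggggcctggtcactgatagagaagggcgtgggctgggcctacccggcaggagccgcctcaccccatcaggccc
MIS12 (chr17:5486224-5486373, plus strand): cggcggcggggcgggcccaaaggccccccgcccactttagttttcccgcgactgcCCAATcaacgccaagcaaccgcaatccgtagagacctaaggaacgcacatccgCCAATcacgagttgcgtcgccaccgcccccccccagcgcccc

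On either strand of the whole window, a CHR string was found in 18 of 33 member promoters (54.5%), against 16.6% of all 27305 promoters and 10.9% of those of tested genes. Within 50 bases of the start it was found in 15 of 33 (45.5%), against 5.05% of all promoters and 3.05% of those of tested genes. Of the 14 tested members with a CHR string that close, 13 had a log2 fold change of -1 or lower, the exception being CENPN, as did 8 of the 17 tested members without one. Their medians were -1.53 and -0.93. Among all tested genes with a promoter entry, 87 of 355 with a CHR string that close (24.5%) and 445 of 11294 without (3.94%) were at -1 or lower, with medians of -0.28 and -0.03. Over the whole window the contrast was smaller. The medians were -1.49 in the 17 tested members with a CHR string and -0.98 in the 14 without. Among all tested genes with a promoter entry they were -0.13 and -0.03. The limit of 50 bases moves HJURP, CENPC and ZW10 to the members without one. Members without any CHR string include SPC24, CENPI, CENPU and DSN1, which are among the larger falls.

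A CCAAT string stood in 20 of 33 member promoters (60.6%), against 35.7% of all promoters and 36.6% of those of tested genes. The median log2 fold change was -1.44 in tested members with it and -1.41 in those without. The E2F strings TTTCGCGC and TTTGGCGC were found in 2 of 33 (6.06%), CENPU and OIP5. They were in 1.18% of all promoters and 2.0% of those of tested genes. The heat shock element was searched as the units GAA, TTC and GAA or TTC, GAA and TTC with 2 bases between units. It was in 0 of 33 member promoters, in 0.487% of all promoters and in 0.343% of those of tested genes. TTCGAA is its own reverse complement, and no other string searched contains it. Each match is a string in a window of sequence and says nothing of binding in these cells, and a missing string says only that these letters are not in this window.

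**Figure D2:**
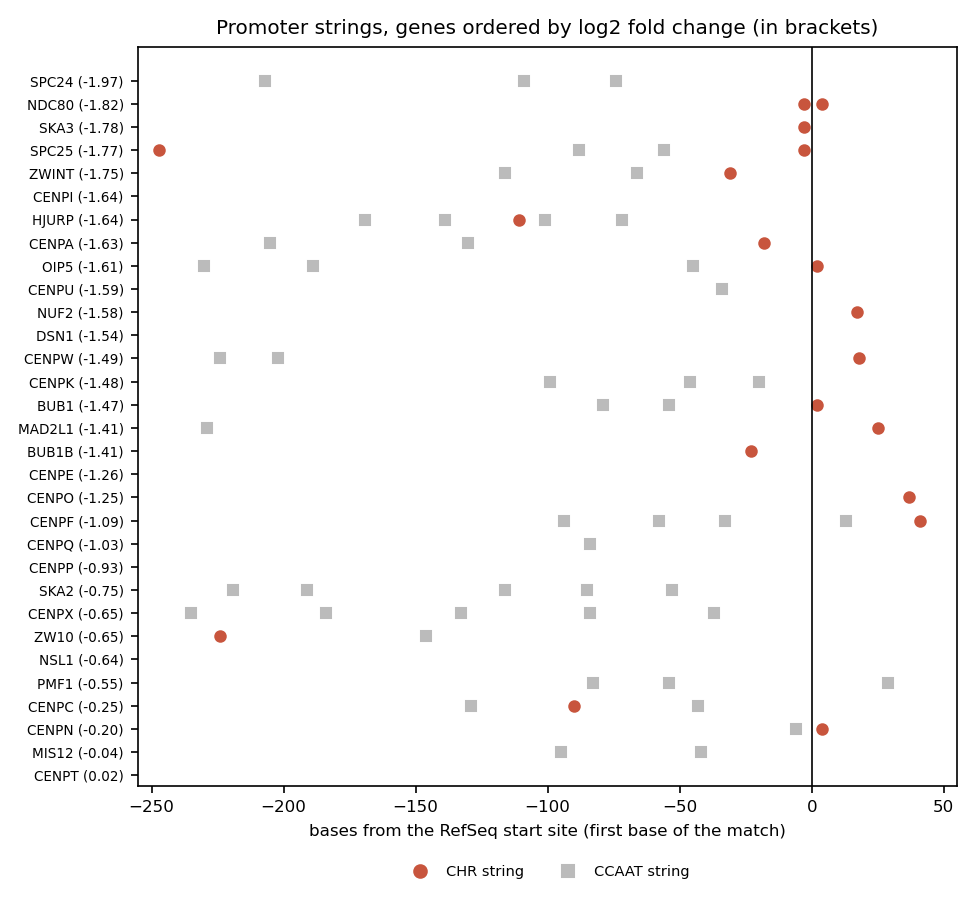
Position of CHR strings (circles) and CCAAT strings (squares) in the RefSeq promoter windows of the 31 tested members that have one, in bases from the start site. Genes are ordered from the largest fall at the top, with log2 fold changes in brackets. Many CHR strings in the upper rows lie within 50 bases of the start. SPC24, CENPI, CENPU, DSN1, CENPK and CENPE are among the genes there that have none, and that of HJURP begins at -111.

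The inner centromere had 17 of 18 members lower, 11 of them by at least 2-fold, with a median log2 fold change of -1.24. CENPA (ENSG00000115163, chr2:26764289-26801067 on GRCh38 by GENCODE 29, plus strand) encodes the histone H3 variant that marks the centromere. It held 1198, 1209, 1292 and 1152 normalized counts in the 4 DMSO libraries and 377, 350.2, 458 and 381 in the 4 DTHIB libraries. The groups lay far apart, with DTHIB at 32.3% of the DMSO mean and a log2 fold change of -1.63 (limma, adjusted p = 1.5e-12, SE 0.068). HJURP, the chaperone that places CENP-A into nucleosomes, had 2397, 2479, 2489 and 2263 normalized counts in DMSO and 789, 702, 818 and 780.0 in DTHIB. Its log2 fold change of -1.64 nearly equalled that of its cargo. OIP5, also called MIS18B, and MIS18A form the complex that primes centromeres for this loading. OIP5 fell from 556 ± 29.6 to 183 ± 32 (SD, n = 4 libraries per group here and below), and MIS18A fell less, from 1000.1 ± 39.5 to 515 ± 37.6. Exons of OIP5 overlap the antisense gene OIP5-AS1 over 38% of their length. Strand is not stated for the counting, so the reads of the pair cannot be told apart.

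The 4 subunits of the CENP-HIKM complex, which bridges CENP-C and the other inner subunits, all fell, with a median of -1.55. CENPI was at 760.4, 812, 786 and 722 normalized counts in DMSO and at 259, 229, 274 and 225 in DTHIB, a log2 fold change of -1.64, the lowest of the inner part. CENPM had 1132, 1123, 1215 and 1082 against 382, 315, 419 and 369, a log2 fold change of -1.62. In both genes the groups lay far apart. CENPK had a log2 fold change of -1.48 and CENPH of -1.22. All 4 subunits of the CENP-OPQU complex, which helps recruit kinases and stabilise attachments, were lower as well. CENPU, the docking subunit for Polo-like kinase 1, fell most, to 33.3% of DMSO, followed by CENPO (41.9%), CENPQ (49.1%) and CENPP (52.0%). CENPO shares 27% of its exon length with ADCY3, CENPP 38% with IPPK and CENPU 11.7% with PRIMPOL, each on the opposite strand.

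CENPN and CENPC had the smallest log2 fold changes among the 17 inner members that fell. CENPN, which reads the CENP-A nucleosome, had 8531, 8696, 8921 and 9419 normalized counts in DMSO and 8299.9, 7895, 7242 and 7498 in DTHIB. The groups did not overlap, but the lowest DMSO and the highest DTHIB value nearly met, and the fall of 0.20 on the log2 scale (SE 0.040, limma adjusted p = 0.000298) left 87.0% of the DMSO mean. CENPN exons overlap CMC2 over 12.8% of their length, AC092718.8 over 7.32% and AC092718.2 over 4.71%, each on the opposite strand. CENPL, the partner of CENPN, fell to 58.3%. CENPC, the scaffold that binds CENP-A nucleosomes and the MIS12 complex, fell from 383 ± 20.6 to 323 ± 22.8, a log2 fold change of -0.25 (limma adjusted p = 0.00411).

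CENPT (ENSG00000102901, chr16:67828157-67847811 on GRCh38, minus strand) forms a histone-fold assembly with CENPW, CENPX and CENP-S and recruits NDC80. It had 864, 844, 825 and 803 normalized counts in DMSO and 793, 918, 869.9 and 806 in DTHIB. The groups overlapped, and the log2 fold change was 0.02 with a 95% interval of -0.09 to 0.13 (limma adjusted p = 0.742), and -0.020 without DTHIB replicate 2. CENPW in the same assembly fell to 36.0% of DMSO and CENPX to 63.7%. CENPT exons overlap 3 genes on the opposite strand, TSNAXIP1 over 10.8% of their length, THAP11 over 6.86% and NUTF2 over 1.99%.

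**Figure D3:**
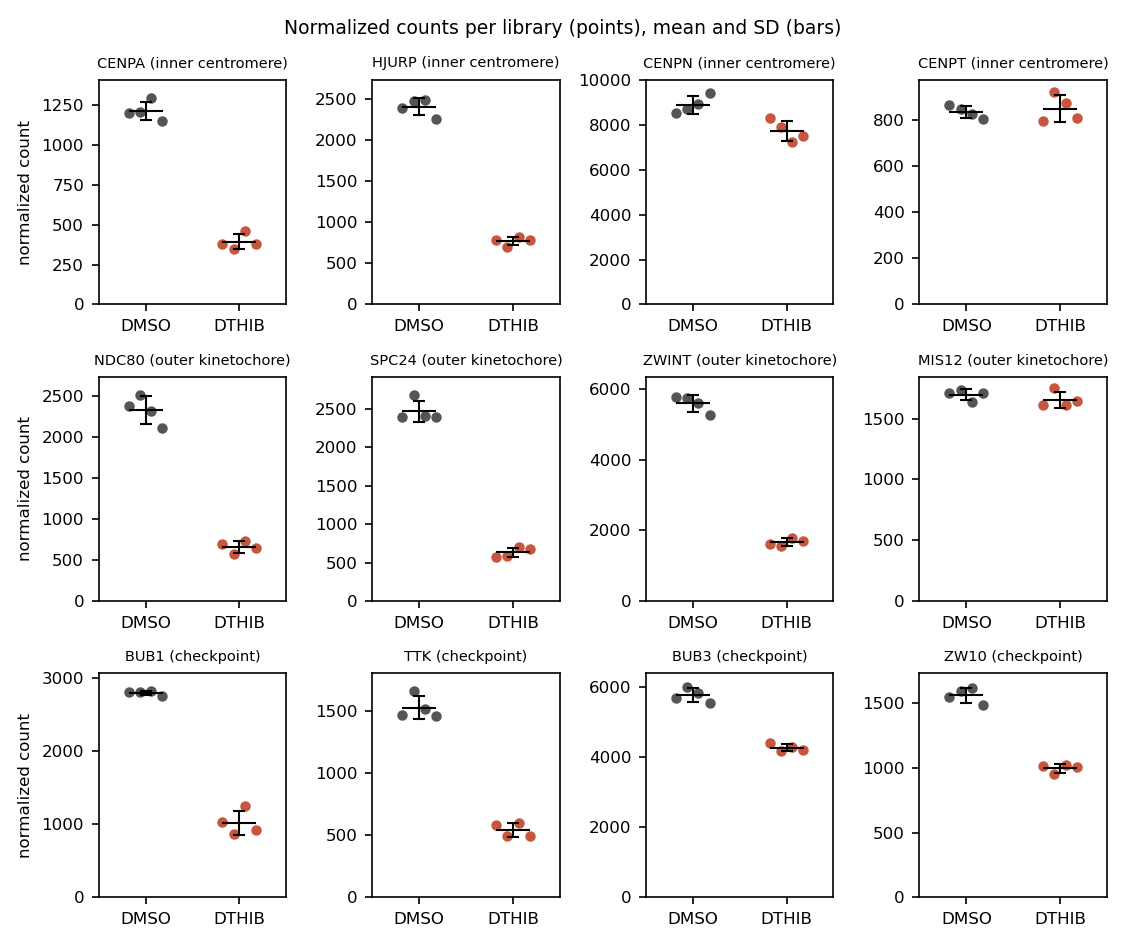
Normalized counts of 12 members in each of the 8 libraries (points), with the group mean and SD (bars), on axes that start at 0. CENPA, HJURP, NDC80, SPC24, ZWINT, BUB1 and TTK in DTHIB fell by more than 2-fold, CENPN, BUB3 and ZW10 are lower by less, and the points of CENPT and MIS12 overlap between the groups.

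The outer kinetochore had 13 of its 14 tested members lower, 10 by at least 2-fold, and a median log2 fold change of -1.51. The NDC80 complex is the rod that binds microtubules, and its subunit genes fell most as a complex, with a median of -1.79. NDC80 itself held 2377, 2513, 2317 and 2106 normalized counts in DMSO and 699, 567, 729 and 643 in DTHIB, a log2 fold change of -1.82 (limma, adjusted p = 3.28e-13, SE 0.067). SPC24 (ENSG00000161888, chr19:11131520-11155808, minus strand) had 2399, 2677, 2413 and 2394 in DMSO and 577, 578, 697 and 672 in DTHIB. This was the largest fall of all members, to 25.6% of DMSO (log2 fold change -1.97, SE 0.059). NUF2, the coiled-coil partner of NDC80, was at 33.5%.

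SPC25, the partner of SPC24 in the rod, was measured on far fewer reads, 234 over all 8 libraries. It had 53.6, 48.8, 39.6 and 37.1 normalized counts in DMSO and 10.4, 15.6, 14 and 9.97 in DTHIB. The groups were apart, and the log2 fold change of -1.77 had the widest 95% interval of the members, -2.22 to -1.31. Per kilobase of annotated exon its DMSO level was 24.3 normalized counts, against 870.2 for SPC24, 647 for NDC80 and 642 for NUF2, the other subunits of the complex.

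The MIS12 complex links the inner centromere to KNL1 and NDC80, and its 4 subunits differed widely. MIS12 (ENSG00000167842, chr17:5486285-5490814, plus strand) had 1714, 1732, 1634 and 1708 normalized counts in DMSO and 1611, 1751, 1612 and 1642 in DTHIB. These values overlapped, with a log2 fold change of -0.04 and a 95% interval of -0.12 to 0.04 (limma adjusted p = 0.384). The value was 0.054 under quantile normalization, where MIS12 did not pass either. DSN1, by contrast, fell from 1687 ± 76 to 578 ± 24.7. PMF1 held 497, 496, 492 and 508 in DMSO and 342, 334, 334 and 350.1 in DTHIB, close replicates around a log2 fold change of -0.55. Its exons share 23.3% of their length with the readthrough gene PMF1-BGLAP on the same strand, with the treatment of such reads in counting not given in the sources used here. NSL1 had a log2 fold change of -0.64. MIS12 exons overlap DERL2 on the opposite strand over 9.53% of their length.

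KNL1, the scaffold on which checkpoint proteins assemble, fell to 36.2% of DMSO, and its binding partner ZWINT from 5599 ± 240.4 to 1665 ± 104. SKA3, a subunit of the SKA complex that follows microtubule ends, had 2358, 2549, 2546 and 2349 normalized counts in DMSO and 698, 679, 749 and 716 in DTHIB. Its log2 fold change was -1.78 (limma, adjusted p = 2.43e-15, SE 0.043). SKA2 of the same complex kept 59.6% of its DMSO level, and SKA1 was listed at 0 in all 8 libraries. The fibrous corona is the outermost layer, where CENPE, a kinesin motor that carries chromosomes to the spindle equator, fell to 42.0% of DMSO and CENPF, which recruits dynein regulators, to 47.0%.

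The checkpoint had all 6 of its tested members lower, 4 by at least 2-fold, with a median log2 fold change of -1.41. TTK, the kinase MPS1 that starts checkpoint signalling, held 1466, 1658, 1516 and 1459 normalized counts in DMSO and 586, 495, 597 and 491 in DTHIB, a log2 fold change of -1.49 (limma, adjusted p = 2.42e-12, SE 0.064). BUB1, a kinase that binds KNL1 and marks centromeric histone H2A, had 2797, 2800.0, 2812 and 2748 in DMSO and 1029, 868, 1249 and 921 in DTHIB. The DMSO libraries were within a narrow band and the DTHIB libraries spread more widely, all far below. BUB1B, which encodes the checkpoint effector BUBR1, had 2924, 2927, 2794 and 2559 against 1083, 944, 1160.5 and 1030.3. MAD2L1, whose protein MAD2 captures the anaphase activator CDC20, had 2219, 2349, 2246 and 2038 against 824, 792, 952 and 763. These 2 genes fell by 1.41 on the log2 scale, each to 37.6% of DMSO. Exons of BUB1B share 10.2% of their length with BUB1B-PAK6 on the same strand.

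BUB3, the adaptor that carries BUB1 and BUBR1 to KNL1, changed least of the tested checkpoint genes. It had 5685, 6009, 5843 and 5543 normalized counts in DMSO and 4416, 4184, 4290.4 and 4207 in DTHIB, 74.1% of the DMSO mean (log2 fold change -0.43, SE 0.031, limma adjusted p = 2.58e-09). ZW10, part of the complex that brings dynein to kinetochores and also known from membrane traffic in interphase, had 1547, 1590.5, 1614 and 1486 against 1016, 948, 1019 and 1002. Both were lower in every DTHIB library. MAD1L1, whose protein anchors MAD2 at kinetochores, had 20 reads over all 8 libraries, with 0 to 4.99 normalized counts in any library, so no comparison was made for it.

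Subunits of 1 complex did not fall by equal amounts. The log2 ratio of each pair of tested subunits was compared between groups for 37 pairs in 11 complexes or functional groups, with a two-sided exact permutation test whose smallest p with 4 against 4 libraries is 0.0286. Of the 37 pairs 25 (67.6%) differed at a Benjamini-Hochberg adjusted p under 0.05. Many pairs have a gene in common. The same count was not made for pairs of unrelated genes, so it is not shown to be particular to these complexes. All 25 have the smallest p, so their adjusted p of 0.0423 does not rank them. That value depends on how many of the 37 pairs reach the smallest p, so no pair passes on its own values alone.

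The ratio of MIS12 to DSN1 was 0.01 ± 0.054 on the log2 scale in DMSO and 1.51 ± 0.103 in DTHIB, a change of 1.51. CENPT to CENPW moved by the same amount, from 0.50 ± 0.068 to 2.00 ± 0.300. In both pairs the member that did not pass the test is set against one that fell strongly. SKA2 to SKA3 rose by 1.04 and BUB1 to BUB3 fell by 1.04. Within the NDC80 complex the shifts were smaller. NDC80 to NUF2 changed by -0.24 and NUF2 to SPC24 by 0.39, both past the threshold, and the other 4 of its 6 pairs did not pass. Of these 4, 3 contain SPC25, whose ratios had SDs of 0.34 to 0.39 in DTHIB, and the fourth is NDC80 to SPC24. BUB1 to BUB1B changed by -0.06 (exact permutation adjusted p = 0.416) and HJURP to OIP5 by -0.03 (exact permutation adjusted p = 0.755). A p that misses the threshold does not show that these pairs moved alike.

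**Figure D4:**
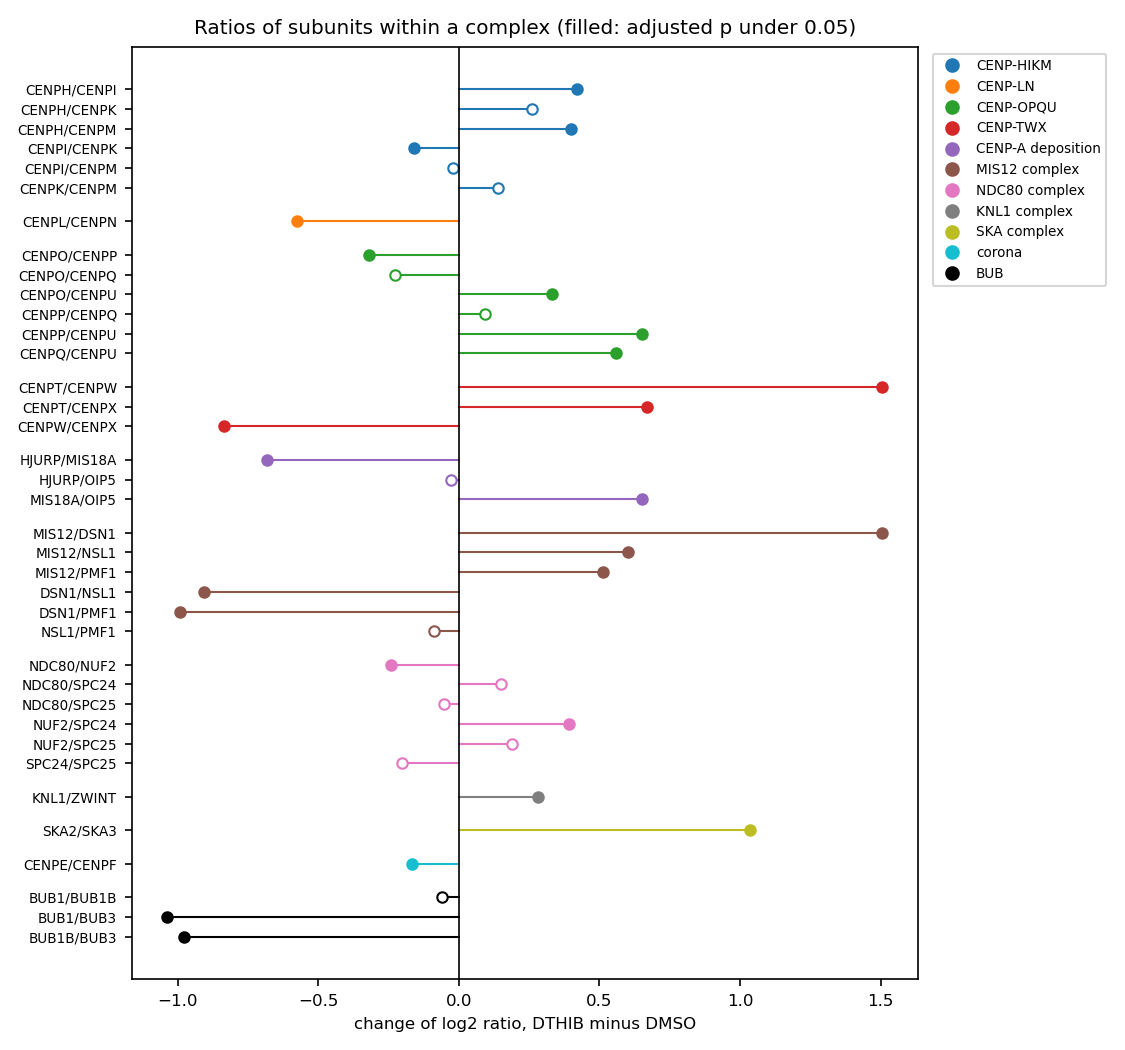
Change of the log2 ratio of 2 subunits of a complex, DTHIB minus DMSO, for 37 pairs of tested members coloured by complex or group. Filled points passed an adjusted p under 0.05 (exact permutation test, 4 against 4 libraries). MIS12/DSN1 and CENPT/CENPW lie farthest from 0, and in the NDC80 complex the open points are the 3 pairs with SPC25 and NDC80/SPC24.

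Genes of the same structures outside the set moved in the same direction. Of 24 partners (chromosomal passenger complex, shugoshins, checkpoint regulators and kinetochore-bound factors) 23 were tested. Among all tested genes 33.7% were lower and 31% higher, while of these 23 partners 21 fell, 1 rose and 1 did not pass. The median of the partners was -1.32 on the log2 scale. The 4 with the smallest adjusted p were TRIP13, the ATPase that remodels MAD2 (log2 fold change -1.32), INCENP, the scaffold of the Aurora B complex (-1.24), ZWILCH, which binds ZW10 (-1.80), and the Polo-like kinase PLK1 (-1.61). The dynein regulator NDEL1 did not pass (-0.08, limma adjusted p = 0.062), although it did without DTHIB replicate 2 (limma adjusted p = 0.0312). CENPV rose from 34.4 ± 1.9 to 50.7 ± 8.72 normalized counts, and NDE1, a homolog of NDEL1, had 4 reads over all 8 libraries and was not tested.

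The anaphase-promoting complex, the ubiquitin ligase that the checkpoint restrains, stayed much nearer its DMSO level. Of its 15 genes 12 fell, 2 rose and 1 did not pass, against 33.7% lower and 31% higher among all tested genes. None of the 15 changed 2-fold, but only 4.36% of all tested genes were lower by that much, so this is not particular to the complex. The median log2 fold change of the 15 genes was -0.14. CDC20, the activator that MAD2 captures, is counted among the partners and fell to 35.3% of DMSO (log2 fold change -1.51). CDC23 and CDC27, subunits of its arm that binds activators, had log2 fold changes of -0.48 and -0.41, and ANAPC11, the catalytic RING subunit, of -0.34. ANAPC16 rose by 0.34 and CDC16 by 0.12 on the log2 scale, while ANAPC10 did not pass (-0.12, limma adjusted p = 0.372). Under quantile normalization 8 of the 12 falls remained past the threshold.

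**Figure D5:**
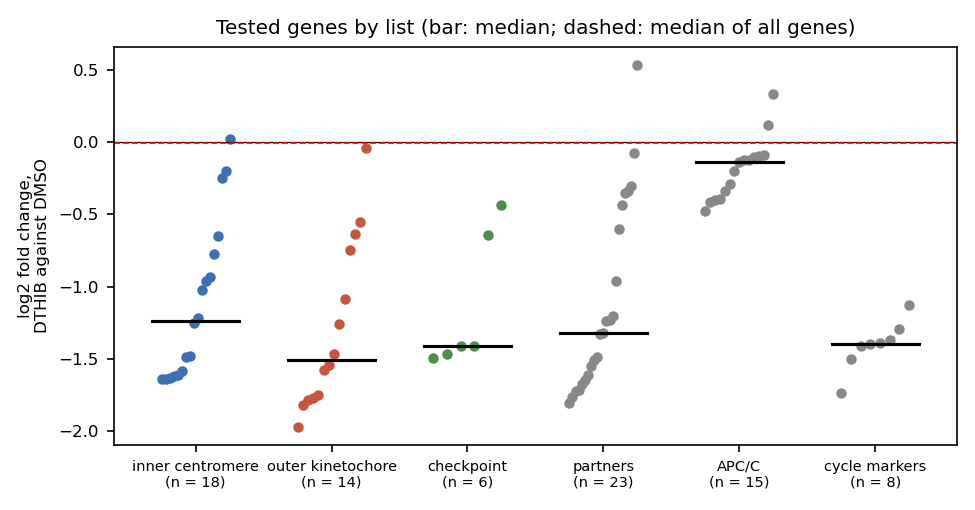
Log2 fold change of DTHIB against DMSO for every tested gene of 6 lists (points), with the list median (bar), n tested genes under each name and the median of all tested genes (dashed line, -0.01). The 3 kinetochore parts, their partners and the cycle markers have medians of -1.24 to -1.51, and the anaphase-promoting complex (APC/C) of -0.14.

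Across libraries most members shifted the same way. The counts that follow were not made for all tested genes, so these shifts cannot be called particular to the members. In DMSO replicate 4, 33 of the 38 tested members had their lowest DMSO value, with a median deviation of -0.08 from the group mean on the log2 scale. In DTHIB replicate 3, 26 had their highest DTHIB value, with a median deviation of 0.10, and in DTHIB replicate 2, 23 had their lowest, with -0.09. These shifts are small beside the median difference between the groups, and leaving out any 1 library kept all 36 calls. The levels of the members in DMSO ranged from 21.6 normalized counts per kilobase of annotated exon for CENPP to 2492 for CENPN, with a median of 540.0. Level and log2 fold change had a Pearson coefficient of -0.10 and a Spearman coefficient of -0.20 across the 38 tested members, a description only, since all values come from the same libraries. The authors' deposited table has a fall with an adjusted p under 0.05 for 36 members and for 30.6% of its genes with an adjusted p and a mean of at least 10. In the authors' deposited table the log2 fold changes of CENPT and MIS12 were 0.02 and -0.04.

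The libraries held 29499458 to 30926053 counted reads in DMSO and 27229291 to 29159387 in DTHIB, and every pair within a group differed by more than sampling noise. The luminal prostate markers examined were all detected, KLK3 for example at 66682 normalized counts in DMSO, and 10 of 12 markers of basal, stromal, blood, endothelial and neuroendocrine cells had means under 3 in both groups. KRT14 (22 in DMSO and 21 in DTHIB) and VWF (148 and 165) were the others, and neither passed the test.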

How the data were processed

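Build GRCh38 and the tools DESeq2 2.11.40.2, featureCounts 1.6.3, HISAT2 2.1.0, StringTie 1.3.4 and Trimmomatic 0.36.5 are named by the submitters' processing notes, with roles, settings, annotation and strand not given in the sources used here. The signal the authors deposited is, by its name, a DESeq2-normalized count. The authors also deposited per gene a mean signal, a log2 fold change, its standard error and Wald score, a p-value and an adjusted p-value, in a table without headers read in DESeq2's order. All 8 sample columns were used. In each column 100% of values were whole multiples of its smallest step (tolerance 0.01), so reads were recovered and summed.

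limma 3.58.1 (R 4.3.3; eBayes with trend, two-sided) was fitted to log2(value + 1) of the 17194 genes with a mean of at least 10. Subunit ratios were tested by exact permutation. Both were also run on simulated data. The shift simulated for the ratios exceeded most changes found here, so that run says nothing of how well smaller ones are found. Positions, exon lengths and overlaps come from GENCODE 29 (GRCh38). Alternatives were other pseudocounts, filters and scalings, edgeR 4.0.16 and DESeq2 1.42.0 on recovered reads, a replicate block, and each library left out. Members, lists and tests were chosen with earlier results of these data known. Values of every library are given for the 4 largest and 2 smallest changes of each part and for members that did not fall. Any further member is named with its values already known. Among the partner and anaphase-promoting complex lists, the 4 genes with the smallest adjusted p and those that did not fall are named.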

Additional observations from a re-analysis of the deposited data

Results flagged for a closer look

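In 4 of the 78 groups of 4 libraries examined, 1 library stood far from the other 3 by Dixon's criterion, where chance alone flags about 5% of groups. MIS18A in DTHIB replicate 2 was at 459 normalized counts, against 532 to 535 in the other DTHIB libraries. SPC24 in DMSO replicate 2 was at 2677, against 2394 to 2413. CENPF in DTHIB replicate 3 was at 3379, against 2826 to 2893. MAD1L1 in DMSO replicate 1 was at 4.79, against 1.91 to 2, on a few reads each. The first 3 genes were called lower in every fit without 1 library.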

How the results depend on the processing

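All 36 falls kept their direction and their side of the threshold under the other pseudocounts (0.5 and 5), no filter, both scalings (TMM and quantile), edgeR, DESeq2, the replicate block and every fit without 1 library. With a mean of at least 50 the count was 35, since SPC25 was no longer tested. CENPT and MIS12 passed the threshold in none of these fits. The log2 fold change of CENPT ran from -0.020 (without DTHIB replicate 2) to 0.051 (without DTHIB replicate 1) in fits without 1 library, and MIS12 (0.054) and the partner NDEL1 (0.017) changed sign under quantile normalization. Partners lower numbered 21 to 22, and anaphase-promoting complex genes 8 to 12, with ANAPC2, ANAPC7, ANAPC13 and FZR1 losing their calls in 1 or more fits; the cause was not tested. Pairs of subunits that differed numbered 25 to 29. All tested genes that were lower numbered 5164 to 5929. The replicate numbers share only a number: deviations of same-numbered libraries correlated between -0.07 and 0.01, and with the replicate block 36 members and 5770 genes were lower. SPC25, SKA1 and MAD1L1 had 234, 0 and 20 reads over all 8 libraries, too few for a precise value, and why these were so few was not tested.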
